A study of Danio rerio with 18 samples.

Results

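The cytochrome P450 genes of families 2, 3 and 4 were read in the transcriptomes of whole zebrafish larvae collected at 5 days post fertilization (DPF). Members were taken by gene symbol, as every gene whose symbol begins with cyp2, cyp3 or cyp4 followed by a letter, without regard to capitals. This gave 52 of the 31388 genes in the count tables, of which 43 belong to family 2, 5 to family 3 and 4 to family 4. There were 18 libraries, each made from a pool of 15 larvae, in 6 groups of 3. Wildtype (WT) larvae of the ABTL line were germ-free (GF), conventionalized from 3 DPF (CONVD), or mono-associated from 3 DPF with *Exiguobacterium* ZWU0009 or with *Chryseobacterium* ZOR0023. Larvae carrying the hu3568 allele on both copies of *myd88* (*myd88*-/-), the adaptor of Toll-like receptor signaling, were GF or CONVD. Conventionalization used water from a dish of WT larvae reared without sterile technique, for both genotypes. The larvae of all groups were unfed. The mutants came from their own parents rather than from siblings of the WT larvae, so the allele and the parental background cannot be told apart. The libraries are labelled biological replicates. Unless another fit is named, the p-values given here rest on a spread between pools that was estimated over all 6 groups together. They are therefore not set by the compared pools alone.

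Cytochrome P450 enzymes are heme proteins that insert an oxygen atom into lipids, hormones and foreign compounds, using electrons handed over by P450 oxidoreductase and cytochrome b5. In vertebrates, families 2 and 3 are best known for the breakdown of drugs and toxins in liver and intestine, and several family 2 enzymes form epoxides of arachidonic acid. Family 4 enzymes hydroxylate the end of fatty acid chains. In fish, family 2 has grown into subfamilies of neighbouring genes, such as cyp2k, cyp2p, cyp2x, cyp2aa and cyp2ad.

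The libraries held between 6404744 and 23600976 counts, with a median of 12012273, and the members took between 0.117% and 0.199% of them. In a principal component analysis, the first component held 55.6% of the variance and parted the mutants from the WT larvae. *Chryseobacterium* libraries 1 and 3 stood apart on the next components, so the calls of that group are also given without them. They also held the fewest counts of all libraries, 6404744 and 6740738. The level of *myd88* was 9.11 to 12.3 CPM (read counts scaled to one common library size) in WT GF larvae, 4.31 to 6.02 CPM over the 9 libraries of colonized WT larvae, and 3.09 to 4.60 CPM in the 6 mutant libraries. Levels in CPM are not divided by transcript length, so a gene is compared between groups and not with other genes. In whole larvae, fewer cells of a type and less RNA per cell cannot be told apart.

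Of the 52 members, 49 passed the filter on low counts and were tested among 23367 genes with edgeR's quasi-likelihood test. A member was called when its Benjamini-Hochberg adjusted p over all genes was under 0.05 and its fold change at least 1.3. The other 3 members, *cyp2k22*, *cyp2k31* and *cyp2x10.2* copy B (the files hold 2 genes with this last symbol), had at most 17 counts in any library and were not tested in the fit of all 18 libraries. Between mutants and WT larvae 34 members were called under GF and 30 under CONVD conditions, and in each comparison of colonized with GF larvae 2 or 0, as the heatmap of the 49 tested members shows.

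**Figure D1:**
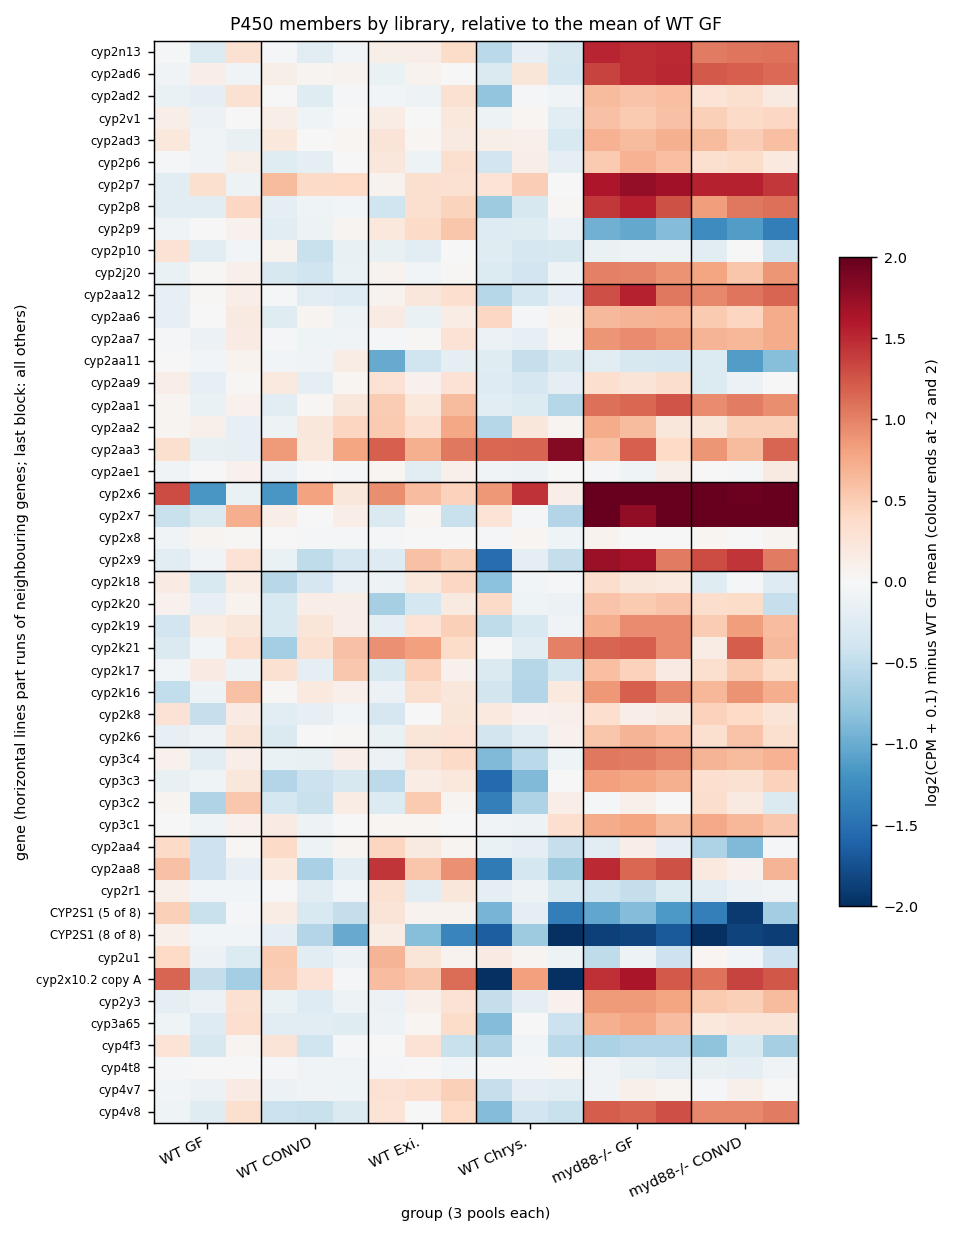
Level of each of the 49 tested members (rows) in each of the 18 libraries (columns), as log2(CPM + 0.1) minus the mean of the 3 WT GF libraries. Red is higher and blue lower, with the colour scale ending at -2 and 2, and horizontal lines part runs of neighbouring genes. The 6 mutant libraries on the right are redder than the 12 WT libraries for most members, while *cyp2p9* and the *CYP2S1* genes are blue there.

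Under GF conditions, 34 of the 49 tested members were called between mutants and WT larvae, which is 69.4% of them, beside 31.3% of all genes tested. Of these, 29 were higher in mutants, where 16.3% of all genes were higher, and 5 were lower, where 15.1% of all genes were lower. The median difference over the members was 0.67 on the log2 scale, beside -0.01 over all genes. Under CONVD conditions, 30 members were called (61.2%, beside 29.7% of all genes), 25 higher and 5 lower, with a median of 0.48. In all genes, 15.2% were higher and 14.5% lower in CONVD mutants. Under both conditions the call was the same for 24 members that were higher and 3 that were lower, and no member was called in opposite directions. Among these, *cyp2x6* and *cyp2x10.2* copy A passed the low-count filter only through their mutant levels, and *CYP2S1* (8 of 8) only through its WT levels. Their calls are near the floor and depend on that filter, so they add no support of their own. The share of all genes with the same call under both conditions was not computed. The counts of 24 and 3 are therefore not read as a trait of the members. The 49 tested members summed to 1309 to 1505 CPM in WT GF larvae and to 1954 to 2015 CPM in GF mutants, with no overlap. In CONVD larvae the sum was 1290 to 1344 CPM in WT and 1740 to 1760 CPM in mutants.

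In the cyp2n, cyp2p and cyp2j subfamilies, *cyp2n13*, *cyp2p6*, *cyp2p7*, *cyp2p8* and *cyp2j20* were higher in GF mutants, *cyp2p9* was lower and *cyp2p10* was not called. CYP2N and CYP2P enzymes metabolize arachidonic acid in killifish. *cyp2n13* (ENSDARG00000042953) was at 23.5, 19.6 and 29.5 CPM in the WT GF pools and at 68.7, 66.8 and 67.0 CPM in the mutant GF pools. Every mutant pool lay above every WT pool, which a rule for naming members asked for. The rise was 2.77-fold (log2 difference 1.47, SE 0.10, edgeR adjusted p = 9.7e-13). *cyp2p7* was at 5.46, 7.93 and 5.90 CPM in WT GF pools against 19.8, 21.7 and 20.6 CPM in mutant GF pools (log2 difference 1.71, SE 0.13). *cyp2p8* rose by 1.40 (SE 0.19), with WT GF pools at 11.4 to 17.7 CPM and mutant GF pools at 32.2 to 39.0 CPM. *cyp2p9* went the other way, with 14.4, 15.0 and 15.9 CPM in WT GF pools and 7.69, 7.37 and 8.21 CPM in mutant GF pools. Its mutant pools all lay below its WT pools, in GF larvae (log2 difference -0.96, SE 0.12) and in CONVD larvae (-1.17, SE 0.11). *cyp2p6* was at 14.2 to 16.2 CPM in WT GF pools and 21.5 to 24.3 CPM in mutant GF pools (log2 difference 0.61, SE 0.11), and *cyp2p10* at 11.2 to 16.1 CPM and 11.97 to 12.2 CPM, which overlapped. *cyp2j20*, of the subfamily whose human member CYP2J2 is an arachidonic acid epoxygenase, was at 4.27 to 5.07 CPM in WT GF pools and 8.80 to 9.51 CPM in mutant GF pools (log2 difference 0.98, SE 0.14).

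The cyp3a and cyp2y subfamilies hold 1 member each, *cyp3a65* and *cyp2y3*. In cyp3c and cyp2k the members with the highest mean CPM were *cyp3c1* and *cyp2k6*. All 4 were higher in GF mutants. In all, 3 of 4 tested cyp3c and 4 of 8 tested cyp2k members were higher, beside 16.3% of all genes. *cyp3a65* (ENSDARG00000103295), of the subfamily that breaks down many drugs in liver and intestine, was at 160, 142 and 213 CPM in WT GF pools and at 276, 290 and 261 CPM in mutant GF pools. The groups did not overlap, and the log2 difference was 0.68 (SE 0.19, edgeR adjusted p = 0.011). Under CONVD conditions *cyp3a65* was at 147, 146 and 143 CPM in WT pools and at 196, 203 and 203 CPM in mutant pools, with no overlap. Its difference there was 0.47 (SE 0.19, edgeR adjusted p = 0.060) and was not called. That SE rests on a spread estimated over all 18 libraries and not on these pools alone. *cyp3c1* was at 28.0 to 31.8 CPM in WT GF pools and 46.2 to 51.3 CPM in mutant GF pools (log2 difference 0.72, SE 0.09). *cyp2k6*, whose zebrafish enzyme activates aflatoxin B1, was at 63.1 to 84.1 CPM in WT GF pools and 103 to 113 CPM in mutant GF pools (log2 difference 0.60, SE 0.14). *cyp2y3* was at 43.6 to 61.6 CPM in WT GF pools against 85.9 to 90.2 CPM in mutant GF pools, a log2 difference of 0.82 (SE 0.13).

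**Figure D2:**
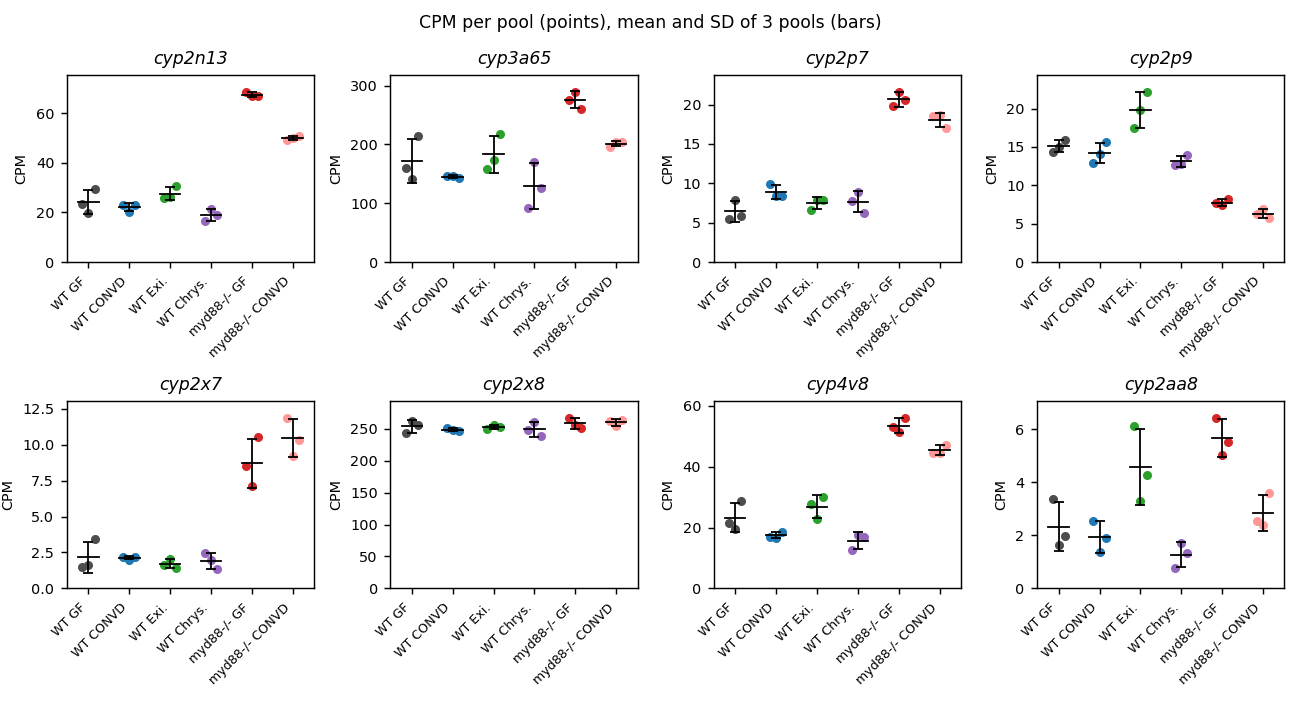
CPM of 8 members in each pool (points, coloured by group), with the mean and SD of 3 pools as bars; each panel has its own axis from 0. *cyp2n13*, *cyp3a65*, *cyp2p7*, *cyp2x7*, *cyp4v8* and *cyp2aa8* have all 3 mutant GF points above the WT GF points, and *cyp2p9* has them below. A rule by which several of these were named asked for pools apart, so their separation adds no support. In GF larvae, all mutant pools lay above for 67.3% of tested members, beside 26.8% of all genes. They lay below for 14.3%, beside 26.2% of all genes. *cyp2x8* lies between 238 and 267 CPM in all 18 pools.

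Among fish-specific members, *cyp2x7* was at 1.45, 1.64 and 3.42 CPM in WT GF pools and at 8.50, 7.11 and 10.5 CPM in mutant GF pools. That was a log2 difference of 1.99 (SE 0.22) in GF larvae, and in CONVD larvae the difference was 2.30 (SE 0.19). *cyp2x9* rose by 1.51 (SE 0.26) in GF larvae and by 1.64 (SE 0.25) in CONVD larvae. *cyp2x8*, in contrast, was at 243 to 263 CPM in WT GF pools and 252 to 267 CPM in mutant GF pools, which overlapped (log2 difference 0.03, SE 0.05). In the cyp2ad subfamily, *cyp2ad6* was at 12.1 to 13.9 CPM in WT GF pools and 32.4 to 36.3 CPM in mutant GF pools (log2 difference 1.46, SE 0.11), while *cyp2ad3* rose by 0.67 (SE 0.10). *cyp2aa12* was at 6.18 to 7.56 CPM in WT GF pools and 14.4 to 20.4 CPM in mutant GF pools, a log2 difference of 1.33 (SE 0.13). *cyp2aa7* rose by 0.89 (SE 0.08) and *cyp2v1* by 0.56 (SE 0.07). *cyp2ae1* was at 31.8 to 35.5 CPM in WT GF pools and 31.6 to 36.2 CPM in mutant GF pools, which overlapped.

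In family 4, the members did not move as a block. *cyp4v8*, of the subfamily whose human member CYP4V2 hydroxylates fatty acids, was at 21.6, 19.4 and 28.6 CPM in WT GF pools and at 53.0, 51.3 and 56.0 CPM in mutant GF pools (log2 difference 1.196, SE 0.11, edgeR adjusted p = 6.3e-09). In CONVD larvae it was 16.7 to 18.7 CPM in WT and 44.6 to 47.3 CPM in mutants (log2 difference 1.38, SE 0.11). *cyp4t8* was at 149 to 152 CPM in WT GF pools and 131 to 144 CPM in mutant GF pools, a difference of -0.14 (SE 0.05) that was under the fold threshold. *cyp4f3*, named after the human enzyme that inactivates leukotriene B4, was at 1.89 to 2.91 CPM in WT GF pools and 1.51 to 1.57 CPM in mutant GF pools (log2 difference -0.68, SE 0.27, adjusted p = 0.038). This call of *cyp4f3* was lost under 6 of 13 alternative settings, namely DESeq2 and leaving out WT GF library 1 or 3 or any one of the mutant GF libraries.

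The members that were lower in mutants in GF larvae also included *cyp2r1*, which makes 25-hydroxyvitamin D. It was at 20.7 to 23.3 CPM in WT GF pools and 15.5 to 17.8 CPM in mutant GF pools (log2 difference -0.39, SE 0.11), while in CONVD larvae its difference was -0.05 (SE 0.10). The call of *cyp2r1* was lost without WT GF library 1 and without mutant GF library 2. *CYP2S1* (5 of 8; ENSDARG00000068290), a copy related to a human epithelial P450, was at 1.76 to 3.46 CPM in WT GF pools and 1.04 to 1.29 CPM in mutant GF pools, a log2 difference of -1.16 (SE 0.31). Without WT GF library 1, the call of *CYP2S1* (5 of 8) was lost (adjusted p = 0.064). *cyp2aa11* was lower only in the CONVD comparison by the call rule (log2 difference -0.71, SE 0.22), beside -0.30 (SE 0.23) in GF larvae. The call for *cyp2aa11* was lost without mutant CONVD library 2 (adjusted p = 0.077). The test of whether the genotype difference itself differed between GF and CONVD larvae called no member, *cyp3a65*, *cyp2r1* and *cyp2aa11* included. *cyp2u1*, a fatty acid hydroxylase, was at 3.73 to 6.001 CPM in WT GF pools and 3.15 to 4.20 CPM in mutant GF pools, which overlapped (log2 difference -0.39, SE 0.22). Reads of 50 nucleotides from near-identical copies, such as those of *CYP2S1* and the cyp2x, cyp2aa and cyp2k genes, may be split between them by the counting.

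In RefSeq's gene order (assembly GRCz12tu, used for order only), 36 members lay in 5 runs of 3 or more neighbours with at most 3 other genes between them. The longest run held 11 members, in the order *cyp2n13*, *cyp2ad6*, *cyp2ad2*, *cyp2v1*, *cyp2ad3*, *cyp2p6*, *cyp2p7*, *cyp2p8*, *cyp2p9*, *cyp2p10* and *cyp2j20*. Of all 49 tested members, 29 were higher and 5 lower in GF mutants, and 25 were higher and 5 lower in CONVD mutants. Of all genes, 16.3% were higher and 15.1% lower in GF mutants, and 15.2% and 14.5% in CONVD mutants. Whether neighbouring members move together was not tested. In GF larvae, 9 of the 11 members of the longest run were higher in mutants and 1 was lower. The lower one was *cyp2p9*, which sits between *cyp2p8* (log2 difference 1.40) and *cyp2p10* (-0.15, SE 0.13). In the run of *cyp2x6*, *cyp2x7*, *cyp2x8* and *cyp2x9*, 3 of 4 were higher under both conditions, and *cyp2x8* differed by 0.03 and 0.06. Of these, *cyp2x6* was at 0 to 0.455 CPM in WT GF pools and 0.821 to 1.45 CPM in mutant GF pools. It passed the low-count filter only through the mutants. In the run of 9 genes from *cyp2aa12* to *cyp2ae1*, 5 were higher in GF larvae, and in CONVD larvae 4 were higher and 1, *cyp2aa11*, was lower. *cyp2aa4*, left out of the gene order, was also called lower in CONVD mutants. It was at 3.59 to 5.10 CPM in WT CONVD pools and 2.05 to 3.78 CPM in mutant CONVD pools, which overlapped. The run of 8 cyp2k genes had 4 higher in each condition, and the run of 4 cyp3c genes had 3.

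**Figure D3:**
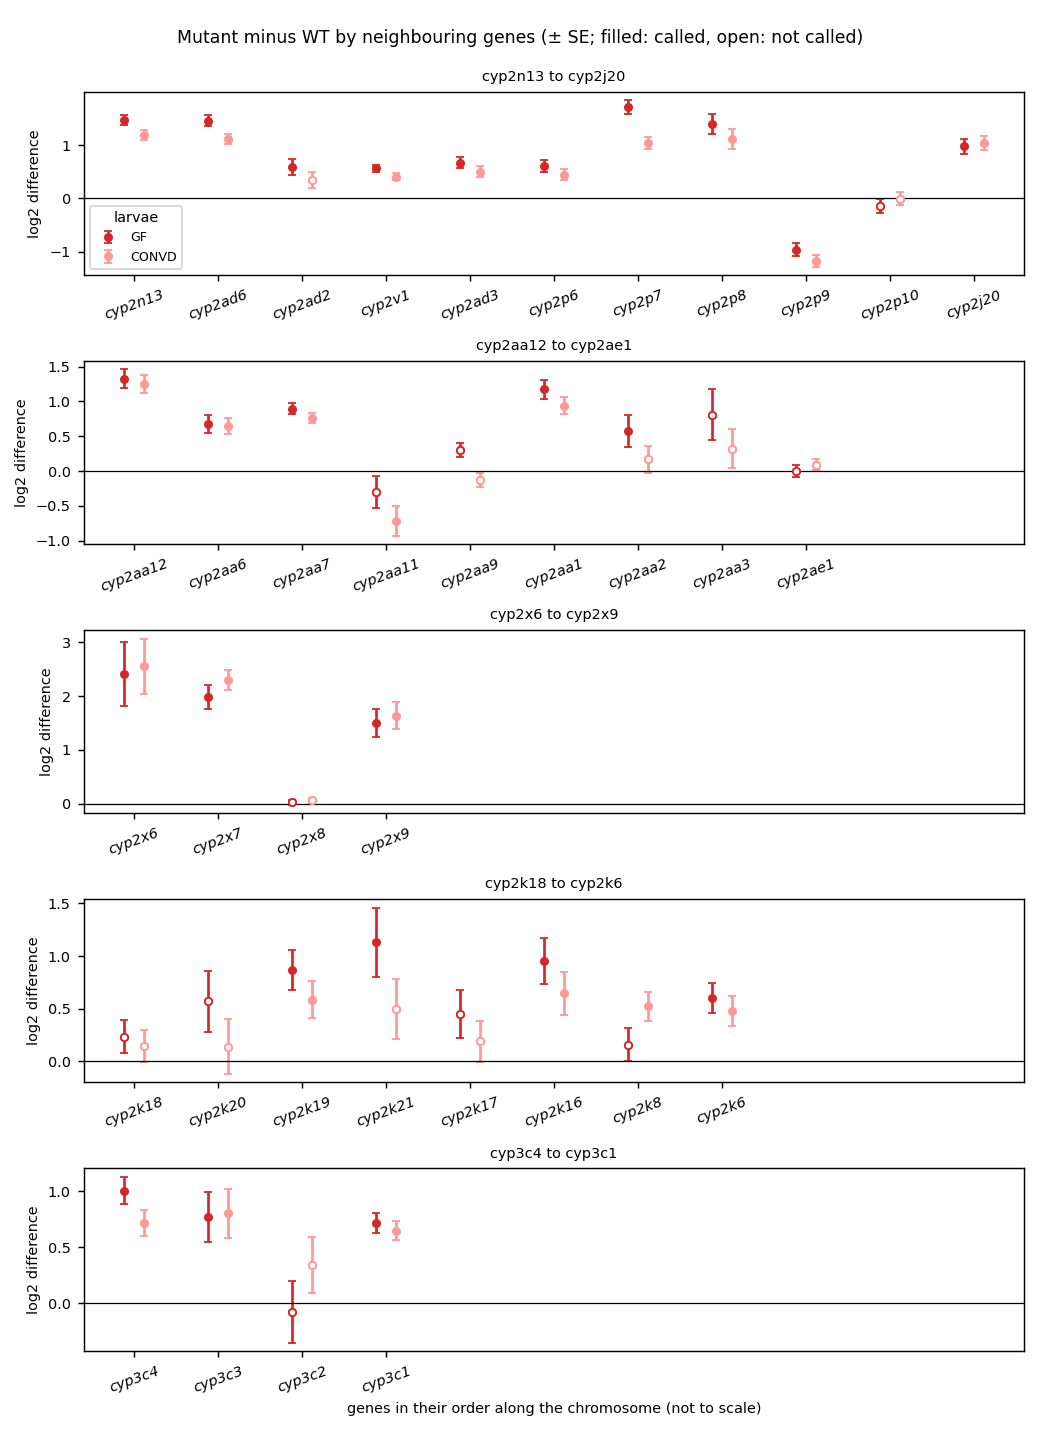
Log2 difference of mutant minus WT larvae (± SE, n = 3 pools a group) for the members of 5 runs of neighbouring genes, in their order along the chromosome and not to scale, in GF (dark) and CONVD (light) larvae. Filled points were called and open points were not; *cyp2p9* lies below 0 in a run whose other called members lie above it.

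The pathway around these enzymes was read from lists chosen by known function, and their counts stand beside the 16.3% of all genes that were higher and 15.1% that were lower in GF mutants, and the 15.2% and 14.5% in CONVD mutants. Of 12 tested redox partners, 5 were higher and 2 lower in GF mutants, and 5 were higher and 3 lower in CONVD mutants. That list also held ferredoxin and ferredoxin reductase genes, which are not the electron donors named above. Some of its lower calls are of that kind. *fdx1b* was lower in GF (-0.66, SE 0.22) and CONVD mutants (-0.65, SE 0.20), and *fdxr* in CONVD mutants (-0.51, SE 0.12). The P450 oxidoreductase gene *porb*, the electron donor, rose by 1.51 (SE 0.12) in GF mutants, *cyb5a*, a cytochrome b5, by 1.21 (SE 0.13) and *pgrmc1*, a heme-binding partner, by 0.94 (SE 0.09), while *cyb5r4*, a cytochrome b5 reductase, was called lower. Of 36 nuclear receptors and partners, 12 were higher and 5 lower in GF mutants (median 0.21), and 7 were higher and 7 lower in CONVD mutants (median 0.15). Among them *nr1i2*, the xenobiotic receptor that drives cyp3a genes in mammals, rose by 0.56 (SE 0.11) in GF mutants. The vitamin D receptor gene *vdra* was lower in GF (-1.18, SE 0.31) and CONVD mutants (-2.37, SE 0.28), and *vdrb* and *pparab* were also lower under both conditions. Of 15 clock output factors of the PAR bZIP and Rev-erb kind, 7 were higher and 5 lower in GF mutants, and 5 were higher and 4 lower in CONVD mutants. PAR bZIP factors drive detoxification genes in mouse liver. Among them *tefa* rose by 1.76 (SE 0.06), *tefb* by 0.84 (SE 0.05) and *hlfa* by 0.62 (SE 0.07) in GF mutants, while *hlfb* was lower (-0.98, SE 0.14). The gene *nfil3-2*, a repressor of the targets of PAR bZIP factors, was lower in GF (-1.38, SE 0.10) and CONVD mutants (-1.04, SE 0.10). Of the Rev-erb genes, *nr1d1* (0.48, SE 0.11) and *nr1d4b* (0.44, SE 0.13) were higher in GF mutants and *nr1d2a* was lower (-0.50, SE 0.13). In CONVD mutants *nr1d1* was higher (0.58, SE 0.11) and *nr1d4b* lower (-0.51, SE 0.13). Whether any of these factors has a part in the P450 levels was not tested.

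Conjugation enzymes, which act on P450 products, and transporters were read in the same way. Of 50 conjugation enzymes, 31 were higher and 1 was lower in GF mutants (median 0.58), and 30 were higher and 2 lower in CONVD mutants (median 0.63). *mgst1.2*, a glutathione transferase, rose by 1.14 (SE 0.09), *sult1st1*, a sulfotransferase, by 1.32 (SE 0.10) and *ugt5a2*, a glucuronosyltransferase, by 1.83 (SE 0.16). Of 20 drug and bile salt transporters, 12 were higher and 1 was lower in GF mutants (median 0.66), and 11 were higher and 1 was lower in CONVD mutants. The lowest p in GF mutants belonged to *abcg2a* (log2 difference 1.97, SE 0.11) and *abcg2b* (1.90, SE 0.14). Of 16 genes of eicosanoid and epoxide metabolism, 5 were higher and 1 was lower in GF mutants, and 6 were higher and none was lower in CONVD mutants. *ephx2*, the epoxide hydrolase, rose by 0.79 (SE 0.12) in GF mutants, and *ptgs2b*, a prostaglandin synthase, was lower (-1.65, SE 0.14). In CONVD mutants *ptgs2b* was not called (-0.29, SE 0.15) and *ptgs2a* was higher (0.76, SE 0.15). The 34 tested genes of the other P450 families had 8 higher and 7 lower in GF mutants (median 0.03), and 5 higher and 6 lower in CONVD mutants (median 0.21). In that group *cyp1a*, the target of the aryl hydrocarbon receptor, rose by 1.37 (SE 0.09) in GF mutants.

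Markers of liver, gut and kidney tubule cells were higher in mutants too. Of all genes, 16.3% were higher and 15.1% lower in GF mutants, and 15.2% and 14.5% in CONVD mutants. The lists share genes. *cdh17* is counted as an enterocyte and as a pronephric tubule marker, and *slc10a2* as an enterocyte marker and as a transporter above. Both were called higher under GF and CONVD conditions. Of 16 hepatocyte markers, 12 were higher and none was lower in GF mutants (median 0.82), and the summed level was 2106 to 2858 CPM in WT GF pools and 3684 to 3871 CPM in mutant GF pools. Of 14 enterocyte markers, 11 were higher and none lower (median 0.93), with sums of 1560 to 1952 CPM in WT GF pools and 2739 to 3028 CPM in mutant GF pools. Of 13 pronephric tubule markers, 8 were higher and none lower, with sums of 643 to 738 CPM and 992 to 1103 CPM. Of 6 skeletal muscle markers none was called, while 4 of 10 myeloid and 2 of 5 erythrocyte markers were lower and 3 of 11 exocrine pancreas markers were higher. In CONVD mutants 11 of the hepatocyte, 9 of the enterocyte and 7 of the pronephric tubule markers were higher. None of the markers on these lists was at 0 in a whole group. Whether the higher marker sums have a part in the higher P450 levels was not tested.

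**Figure D4:**
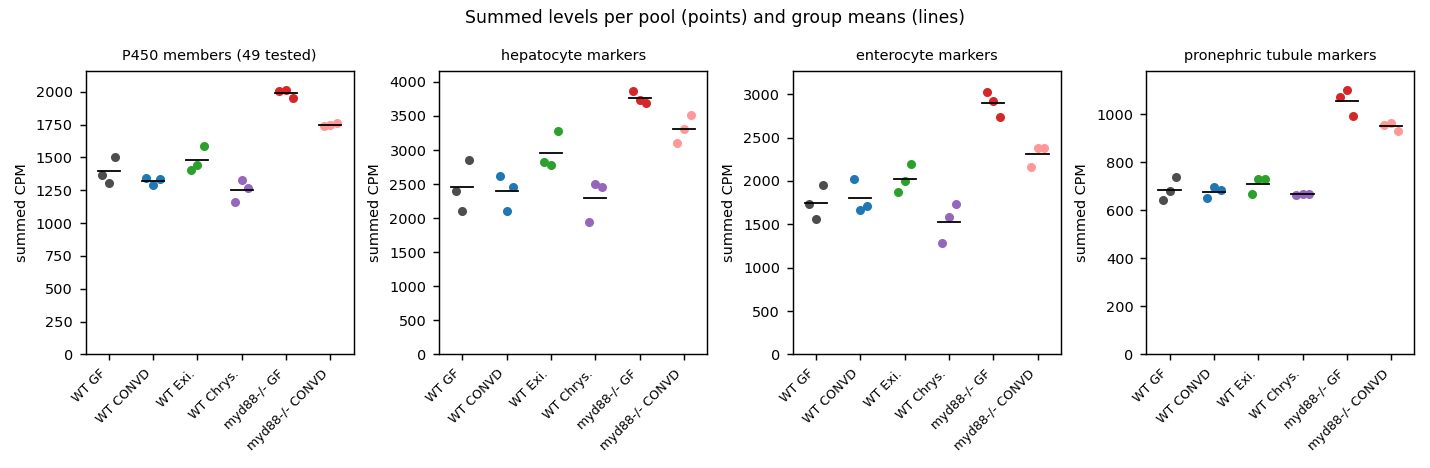
Summed CPM per pool (points, with group means as lines) of the 49 tested members and of hepatocyte, enterocyte and pronephric tubule markers, in the 6 groups. The mutant GF pools are at 1954 to 2015 CPM for the members and the WT GF pools at 1309 to 1505 CPM, and each marker list shows the same order of these groups.

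Conventionalization of WT larvae called none of the 49 tested members with edgeR, where 1.63% of all genes were called. At an unadjusted p under 0.05 there were 3 of the 49, beside 10.7% of all genes, and DESeq2 also called 0. The median difference was -0.08. All 3 CONVD pools lay below the GF pools for 5 members, which is 10.204%, beside 7.8% of all genes. *cyp4v8* came nearest, with 17.0, 16.7 and 18.7 CPM in CONVD pools against 21.6, 19.4 and 28.6 CPM in GF pools (log2 difference -0.42, SE 0.12, adjusted p = 0.082). *cyp2p7* was at 9.95, 8.34 and 8.36 CPM in CONVD pools, all above its GF pools (log2 difference 0.47, SE 0.14, adjusted p = 0.092). Without WT GF library 2, both *cyp4v8* and *cyp2p7* were called.

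Between CONVD and GF larvae, 1.63% of all genes were called in WT larvae and 0.077% in mutants. Among the surrounding lists, none of the 12 redox partners, 50 conjugation enzymes and 20 transporters was called in either genotype. At such shares a list of this size holds few calls or none, so their absence says little about these genes. Of 16 genes of eicosanoid and epoxide metabolism, 2 were lower in WT CONVD larvae and 0 were called in mutants. These were *ptgs2b* (-1.37, SE 0.13) and *ptgs2a* (-0.87, SE 0.15). Both were called in the difference of responses, mutant minus WT (1.36, SE 0.21, and 0.89, SE 0.21). In WT larvae, 1 of 15 clock output factors was higher with conventionalization and 2 were lower. *tefb* rose by 0.40 (SE 0.05), while *nfil3-2*, a repressor of the targets of PAR bZIP factors, was lower (-0.51, SE 0.09), as was *nr1d1*, a Rev-erb repressor (-0.46, SE 0.11). In mutants *nr1d4b* (-1.18, SE 0.13) and *dbpb* (-0.52, SE 0.10) were lower and no factor was higher. Of the other P450 families, *cyp24a1*, which inactivates vitamin D, was lower in WT CONVD larvae (-1.16, SE 0.16).

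In mutants, conventionalization called 2 members lower and none higher (4.08% of 49, beside 0.077% of all genes called and 0.0428% called lower). *cyp2n13* was at 68.7, 66.8 and 67.0 CPM in GF pools and at 49.3, 50.2 and 50.6 CPM in CONVD pools, with no overlap (log2 difference -0.43, SE 0.08, edgeR adjusted p = 0.026). *cyp2aa9* was at 24.7, 23.4 and 24.8 CPM in GF pools and at 16.1, 18.01 and 19.4 CPM in CONVD pools (log2 difference -0.45, SE 0.10, adjusted p = 0.048). Leaving out any one of the 6 mutant libraries left 0 members called. Over all 49 tested members, 39 differences were negative, beside 51.1% of all genes, with a median of -0.23 beside 0.00 over all genes. For 20 members (40.8%), no CONVD pool reached the lowest GF pool, beside 9.39% of all genes. All 11 members of the run from *cyp2n13* to *cyp2j20* had a negative difference, from -0.43 to -0.07. This was not particular to that run. The difference was also negative for 9 of 10 cyp2aa, 7 of 8 cyp2k, 3 of 4 cyp3c and 3 of 5 cyp2x members tested.

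When the 6 mutant libraries were fitted without the other groups, 7 members were lower and none higher (14.3% of 49), beside 0.459% of all genes called lower in that fit. The low-count filter of that fit kept *cyp2x10.2* copy B and dropped *CYP2S1* (8 of 8), so its 49 members differ by 1 from those tested elsewhere. *cyp3a65* was at 276, 290 and 261 CPM in GF pools and 196, 203 and 203 CPM in CONVD pools, with no overlap (log2 difference -0.45, SE 0.04, edgeR adjusted p = 5.7e-08 in that fit). *cyp2aa8* (ENSDARG00000098803 in the files, an identifier that the name table gives to *cyp2aa4*) was at 6.43, 5.04 and 5.52 CPM in GF pools and at 2.55, 2.37 and 3.61 CPM in CONVD pools (log2 difference -1.02, SE 0.18, adjusted p = 0.00061 in that fit). The others were *cyp2n13*, *cyp2aa9*, *cyp2p8*, *cyp3c3* and *cyp2k18*, at -0.45 to -0.40. With all 18 libraries the difference of *cyp3a65* was -0.46 (SE 0.19, adjusted p = 0.70), so its call rests on which libraries set the spread. The enterocyte marker sum was 2739 to 3028 CPM in GF mutants and 2164 to 2385 CPM in CONVD mutants, with 0 of 14 markers called. The hepatocyte sum was 3684 to 3871 CPM and 3108 to 3508 CPM, with 1 of 16 markers lower. These marker calls are from the fit of all 18 libraries, where 0.077% of all genes were called. The part of these sums in the P450 values was not tested. The difference between the mutant and WT responses called 0 members with edgeR (0.813% of all genes were called), and DESeq2 also called 0. At an unadjusted p under 0.05 there were 5 of 49 members, beside 7.38% of all genes. *cyp2p7* came nearest, at -0.66 (SE 0.18, adjusted p = 0.081), and it was called without WT GF library 2.

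**Figure D5:**
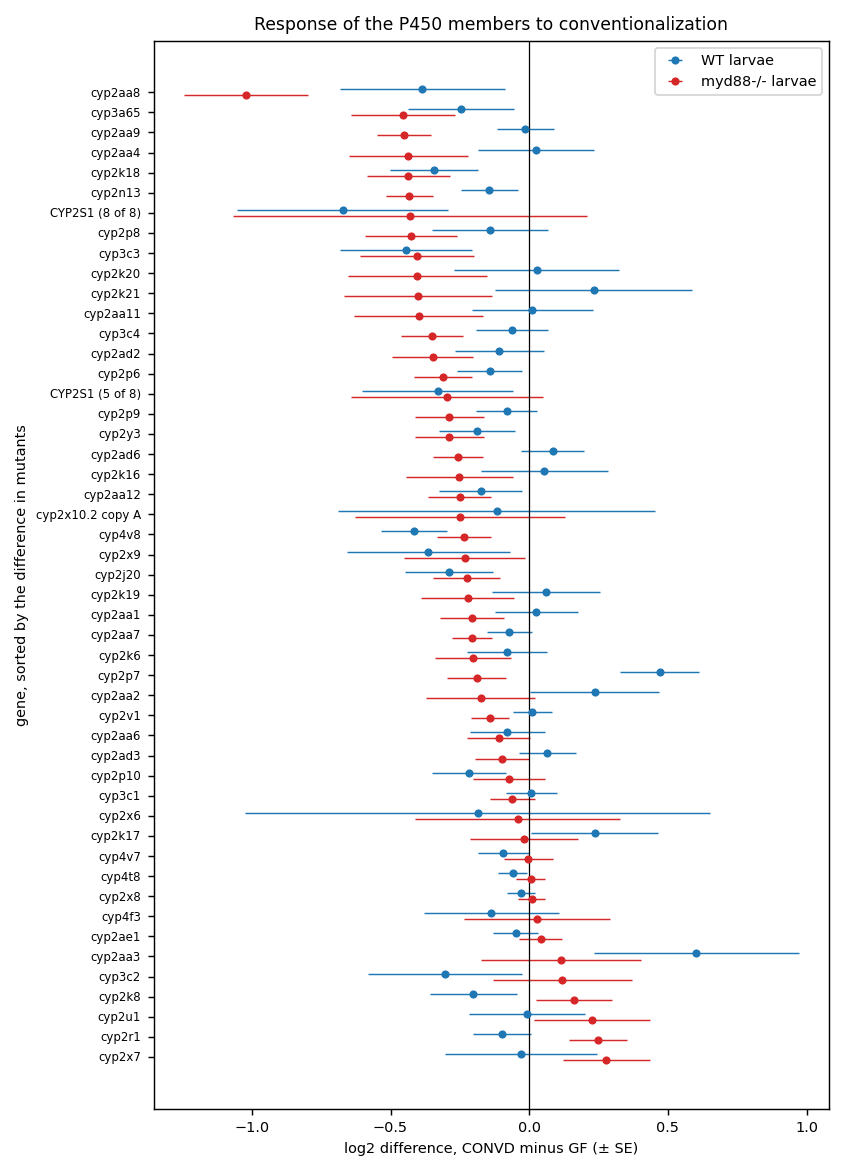
Log2 difference of CONVD minus GF larvae (± SE) for each of the 49 tested members, in WT larvae (blue) and in mutants (red), sorted by the mutant value. In mutants 39 of the 49 points lie below 0, with *cyp2aa8* lowest at -1.02, and in WT larvae 34 do. Of all genes tested, 51.1% had a negative difference in mutants and 51.2% in WT larvae.

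The comparisons of *Exiguobacterium* and *Chryseobacterium* larvae with GF larvae share the WT GF pools with each other and with the CONVD comparison. *Exiguobacterium* called 0 members with edgeR, where 0.757% of all genes were called. DESeq2 also called 0, and 7 of 49 members, all higher, had an unadjusted p under 0.05, beside 9.27% of all genes. The nearest was *cyp4v7*, at 19.4, 18.6 and 22.6 CPM in GF pools and 24.6, 25.3 and 28.0 CPM in *Exiguobacterium* pools (log2 difference 0.37, SE 0.09, adjusted p = 0.049), 1.29-fold and so just under the fold threshold. Without WT GF library 1 or without WT GF library 3, 1 member was called, and without *Exiguobacterium* library 1, 2 were. The median over the members was 0.13, and 37 of 49 differences were positive, beside 50.9% of all genes. All 3 *Exiguobacterium* pools lay above the GF pools for 6 members (12.2%), beside 6.3% of all genes, and below them for 1 member (2.04%), beside 6.19% of all genes.

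*Chryseobacterium* called 2 members (4.08%, beside 1.51% of all genes). *cyp4v8* was at 12.5, 17.6 and 16.8 CPM, below every GF pool (log2 difference -0.55, SE 0.13, edgeR adjusted p = 0.030). *cyp2aa3* was at 1.69, 1.71 and 2.78 CPM against 0.909, 0.630 and 0.621 CPM in GF pools, a log2 difference of 1.44 (SE 0.37, adjusted p = 0.035). Without *Chryseobacterium* libraries 1 and 3, neither of these kept its call, though a different member was called. That fit leaves 1 library in the group, which is assumed to vary like the other groups, so it is a weak check. With all 3 libraries, the median over the members was -0.26. All 3 *Chryseobacterium* pools lay below the GF pools for 11 members (22.4%), beside 7.11% of all genes. Both values include libraries 1 and 3. Without WT GF library 3, *cyp4v8* and *cyp2aa3* both lost their calls, and each also lost it without *Chryseobacterium* library 3. The call of *cyp4v8* was further lost without *Chryseobacterium* library 1, and that of *cyp2aa3* without WT GF library 1 or 2. *cyp1a*, outside these families, rose by 1.88 (SE 0.10) in the *Chryseobacterium* larvae.

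After these values were seen, the mono-associated groups were compared with each other. With *Exiguobacterium*, 8 of the 49 tested members were higher than with *Chryseobacterium* and none was lower, which is 16.3%, where 0.77% of all genes were called and 0.582% were called higher. *cyp4v8* was at 27.7, 22.7 and 30.2 CPM with *Exiguobacterium* and at 12.5, 17.6 and 16.8 CPM with *Chryseobacterium*, with no overlap (log2 difference 0.77, SE 0.13, edgeR adjusted p = 0.0025). *cyp4v7* differed by 0.65 (SE 0.10, adjusted p = 0.00042). *cyp2aa8* was at 6.13, 3.30 and 4.29 CPM against 0.770, 1.71 and 1.32 CPM (log2 difference 1.75, SE 0.32). *cyp2p9* was at 17.5 to 22.2 CPM against 12.6 to 13.9 CPM (log2 difference 0.61, SE 0.11). The others were *cyp2aa1* (0.84), *cyp3c4* (0.68), *cyp2n13* (0.53) and *cyp2aa9* (0.50). Without *Exiguobacterium* library 3, 3 members were called, *cyp4v7*, *cyp4v8* and *cyp2aa8*. Without *Chryseobacterium* library 1 these 3 and *cyp2p9* and *cyp2aa1* were called, 5 in all. Without *Chryseobacterium* libraries 1 and 3 together, which leaves 1 library in that group, 0 were called. *cyp1a* went the other way (-1.64, SE 0.09). The hepatocyte marker sum was 2774 to 3277 CPM with *Exiguobacterium* and 1939 to 2496 CPM with *Chryseobacterium*, with 2 of 16 markers higher and none lower. The enterocyte sum was 1876 to 2199 CPM and 1279 to 1732 CPM, with 0 of 14 called. All 11 exocrine pancreas markers had a positive difference (0.40 to 0.88, median 0.55) and 0 were called, with sums of 1002 to 1418 CPM and 541 to 1108 CPM. The part of these sums in the P450 values was not tested.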

How the data were processed

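Total RNA of whole larvae was sequenced by the authors from 1 end for 50 nucleotides, from libraries that do not mark strand, and mapped to GRCz10 with the GeneTiles server. Bowtie2, SAMtools and DESeq are named in the submitters' processing notes, with no version. What the authors deposited for each library is a read count per gene. In 9 libraries an unnamed last entry that is not a whole number was the reason to enter the deposited column under the name expected counts. That entry was left out, and every gene value is a whole count.

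The main tool was edgeR 4.0.16 under R 4.3.3, and DESeq2 1.42.0 was an alternative. Genes were kept with filterByExpr (minimum count 10, minimum total 15), normalized by TMM and fitted with 1 coefficient per group over all 18 libraries, with a robust quasi-likelihood test. CPM are TMM-normalized. Two-sided p-values were adjusted by Benjamini-Hochberg over all tested genes. The SE is the log2 difference divided by the root of the F statistic. The test was also run on simulated counts, drawn with the same spread in every group. That run does not cover groups of unlike spread.

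Named members were those called in a colonization comparison, up to 8 with the largest called rises and falls in each genotype comparison (mean log2 CPM of at least 0, pools apart), the 8 with the highest mean CPM and the highest of each subfamily. Of the other lists, up to 4 called genes with the lowest p were eligible. Any other gene was named after its values were seen, among them *nr1i2*, *vdra*, *vdrb*, *pparab*, *hlfb*, *ptgs2a*, *fdx1b*, *fdxr*, *cdh17*, *slc10a2*, *cyp2p6*, *cyp2p10*, *cyp4v7*, *cyp3c3*, *cyp3c4*, *cyp2aa1* and *cyp2k18*. The members and lists were chosen with earlier results of these data known. In the gene order, *cyp2aa4* and *cyp2aa8* were left out because the name table gives them each other's symbols. Alternatives were other size factors, DESeq2, the groups alone, no filter, no fold threshold, a replicate block and leaving out libraries.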

Additional observations from a re-analysis of the deposited data

How the results depend on the processing

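The genotype counts moved little. Over the settings that leave out 1 library, 29 to 34 members were called in GF larvae and 25 to 29 in CONVD larvae, and DESeq2 called 31 and 30. Calls in the colonization comparisons were few and moved more. For WT CONVD against GF, 0 members became 1 with the replicate block, 1 without *Chryseobacterium* libraries 1 and 3, and 0 to 2 on leaving out 1 library. For *Exiguobacterium* against GF, 0 became 1 with no fold threshold and 0 to 2 on leaving out 1 library. For *Chryseobacterium* against GF, 2 became 1 with DESeq2, 0 with the groups compared alone, 1 without *Chryseobacterium* libraries 1 and 3, and 0 to 2 on leaving out 1 library. For mutant CONVD against GF, 2 became 7 with the groups compared alone and 0 on leaving out any 1 of their 6 libraries. The difference of responses went from 0 to 1 with the groups compared alone, 1 without *Chryseobacterium* libraries 1 and 3, and 0 to 1 on leaving out 1 library. For *Exiguobacterium* against *Chryseobacterium*, chosen after seeing the data, 8 became 4 with the groups compared alone, 0 without *Chryseobacterium* libraries 1 and 3, and 3 to 9 on leaving out 1 library. The libraries that set the spread change when groups are compared alone or a library is left out. The cause of these shifts in calls was not tested. No named member reversed its direction under these settings. Libraries with the same replicate number did not deviate together in every pair (correlations from -0.09 to 0.18), so the numbers were not read as pairs. Against WT GF they were all positive but weak, 0.07 to 0.09 for WT CONVD, 0.05 to 0.18 for *Exiguobacterium* and 0.001 to 0.11 for *Chryseobacterium*. A weak pairing within WT larvae is therefore possible. Between genotypes they ran from -0.09 to -0.01 in GF larvae and from -0.03 to 0.01 in CONVD larvae. With the replicate block, the counts for *Exiguobacterium* and *Chryseobacterium* against GF, mutant CONVD against GF, the difference of responses, and the genotype in GF and CONVD larvae were 0, 2, 3, 0, 34 and 30. Calls of members under a few CPM, such as *cyp2aa3*, *cyp4f3* and *CYP2S1* (5 of 8), are limited by depth.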
